A study of Mus musculus with 8 samples.

Results

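The genes described are 6 members of the family of insulin-like growth factor (IGF) binding proteins, Igfbp2, Igfbp3, Igfbp4, Igfbp5, Igfbp6 and Igfbp7, chosen by name out of 23284 gene symbols. Their polyA RNA was sequenced in 8 libraries from mouse iPSCs (induced pluripotent stem cells), made here by reprogramming embryonic fibroblasts and grown over feeder cells. In the knock-in line, both ColA1_miR203 and Rosa26rtTA are homozygous (KI/KI), so that doxycycline (dox), through the rtTA transactivator expressed from Rosa26, switches on the microRNA miR-203. Dox libraries of clones 1 and 2 had 5 days of dox and then 2 weeks without it, and vehicle libraries of clones 1 and 2 carry the same alleles but had vehicle (n = 2 in each group), with a collection time that the labels do not give. The second line has wild-type alleles at both loci, (+/+), and received siRNA against Dnmt3a (siDnmt3a), against Dnmt3b (siDnmt3b), against both (the double siRNA) or a control siRNA (siControl), with collection 1 week later and 1 library in each group. The labels do not say that the clones or libraries came from separate animals, so the spread behind each p-value may be technical. The 2 lines differ in genotype and in transfection at once, and differences between them cannot be assigned to either.

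IGF binding proteins are secreted proteins that hold IGF-I and IGF-II outside the cell. They lengthen the life of the growth factors and keep them from the IGF-I receptor until a protease cuts the binding protein and frees its ligand. Igfbp1 to Igfbp6 encode high-affinity binders, while the product of Igfbp7 binds IGF weakly and is better known as a protein of vessel walls and matrix. Embryonic and pluripotent cells depend on IGF signalling for growth, and fibroblasts, the usual feeder cells, secrete several of the binding proteins.

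The libraries were checked first. Dnmt3a, which encodes a de novo DNA methyltransferase, was at 59.8 FPKM with siDnmt3a, 77.6 with siDnmt3b and 69.5 with the double siRNA, against 75.1 in siControl. Dnmt3b, its relative, was at 134.8, 128.3 and 135.0 FPKM in those libraries, against 146.3 in siControl. The differences from siControl were small: -20.3% for Dnmt3a with siDnmt3a, -12.3% for Dnmt3b with siDnmt3b, and -7.45% for Dnmt3a and -7.73% for Dnmt3b with the double siRNA. Dnmt3b also differed by -7.91% with siDnmt3a, which is not directed at it. FPKM are fragments scaled by transcript length and by a library factor whose kind is not stated, so levels can be compared between genes. All 12 pluripotent stem cell markers were detected, with summed levels of 3075 to 4662 FPKM. Single markers of this list differed between the lines in both directions. Tfcp2l1 was at 70.2 to 110 FPKM in the knock-in libraries and at 6.30 to 7.98 in the wild-type libraries. Nanog was at 209 to 283 and at 69.3 to 77.6 in the same order, and Utf1 at 90.1 to 128 and at 234 to 296. Markers of fibroblasts, the cell type commonly used as feeders, were present in every library and moved with the groups. Their summed level over 35 genes was 5054 and 5251 FPKM in dox and 1648 and 1906 in vehicle. With siDnmt3a, siDnmt3b and the double siRNA it was 660, 635 and 664 FPKM, against 839 in siControl. Only Tcf21 of these markers was listed at 0 throughout. The make-up of the sum differed between the lines and between dox and vehicle. Vim was at 228 and 264 FPKM in vehicle, against 207 in siControl, while Col1a1 was at 98.3 and 119.8, against 36.1. In dox, Vim was at 348 and 343 FPKM and Col1a1 at 494 and 517. In such bulk samples, fewer cells of a type and less RNA per cell cannot be told apart.

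Igfbp2 was the most abundant of the 6 genes in 7 of the 8 libraries. Its protein is the main IGF binding protein of many embryonic tissues. It was at 134.0 and 134.5 FPKM in dox clones 1 and 2 and at 133.0 and 125.6 in vehicle clones 1 and 2. In wild-type cells it was at 369, 318 and 384 FPKM with siDnmt3a, siDnmt3b and the double siRNA and at 320 in siControl. All 4 wild-type libraries thus lay above all 4 knock-in libraries. The share of all genes separated in this way was not computed. Vehicle and wild-type libraries alone did not overlap for 76.2% of 12042 genes.

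Igfbp7 was at 130.7 and 152.9 FPKM in dox, against 41.7 and 50.04 in vehicle. In wild-type cells it was at 10.1, 7.30 and 8.92 FPKM with siDnmt3a, siDnmt3b and the double siRNA, against 13.6 in siControl. The groups did not overlap, and both dox libraries lay above both vehicle libraries, which lay above every wild-type library. How many of all genes had such an order was not computed.

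Igfbp3 encodes the main carrier of IGF in adult serum. It was at 30.3 and 27.3 FPKM in dox, against 9.48 and 11.2 in vehicle. In wild-type cells it was at 6.91, 6.64 and 6.73 FPKM with siDnmt3a, siDnmt3b and the double siRNA, against 8.68 in siControl. The groups did not overlap, and the dox libraries stood apart from the other 6, a pattern whose share over all genes was not computed.

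Igfbp4 encodes a binding protein that mostly inhibits IGF action and is cut by the protease PAPP-A. It was at 16.1 and 15.5 FPKM in dox, against 3.86 and 3.51 in vehicle. With siDnmt3a, siDnmt3b and the double siRNA it was at 23.8, 20.8 and 24.98 FPKM, against 24.4 in siControl. Unlike Igfbp7, it was highest in the wild-type line and lowest in vehicle.

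The product of Igfbp5 binds extracellular matrix as well as IGF. Its level was 2.02 and 2.205 FPKM in dox, against 0.964 and 1.39 in vehicle. In the wild-type line it was 8.39, 6.90 and 6.39 FPKM with siDnmt3a, siDnmt3b and the double siRNA, against 9.42 in siControl. Every wild-type library lay above every knock-in library, as for Igfbp2 and Igfbp4, a separation whose share over all genes was not computed.

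Igfbp6, whose protein prefers IGF-II, was the lowest of the 6 genes in 5 of the 8 libraries. It was at 3.48 and 2.67 FPKM in dox, against 1.20 and 1.15 in vehicle. The values with siDnmt3a, siDnmt3b and the double siRNA were 0.289, 0.365 and 0.417 FPKM, against 0.642 in siControl. Values this low rest on few fragments, whose number is unknown here. Igfbp1, the remaining gene of the numbered family that was read beside these 6, was listed at 0 in all 8 libraries.

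**Figure D1:**
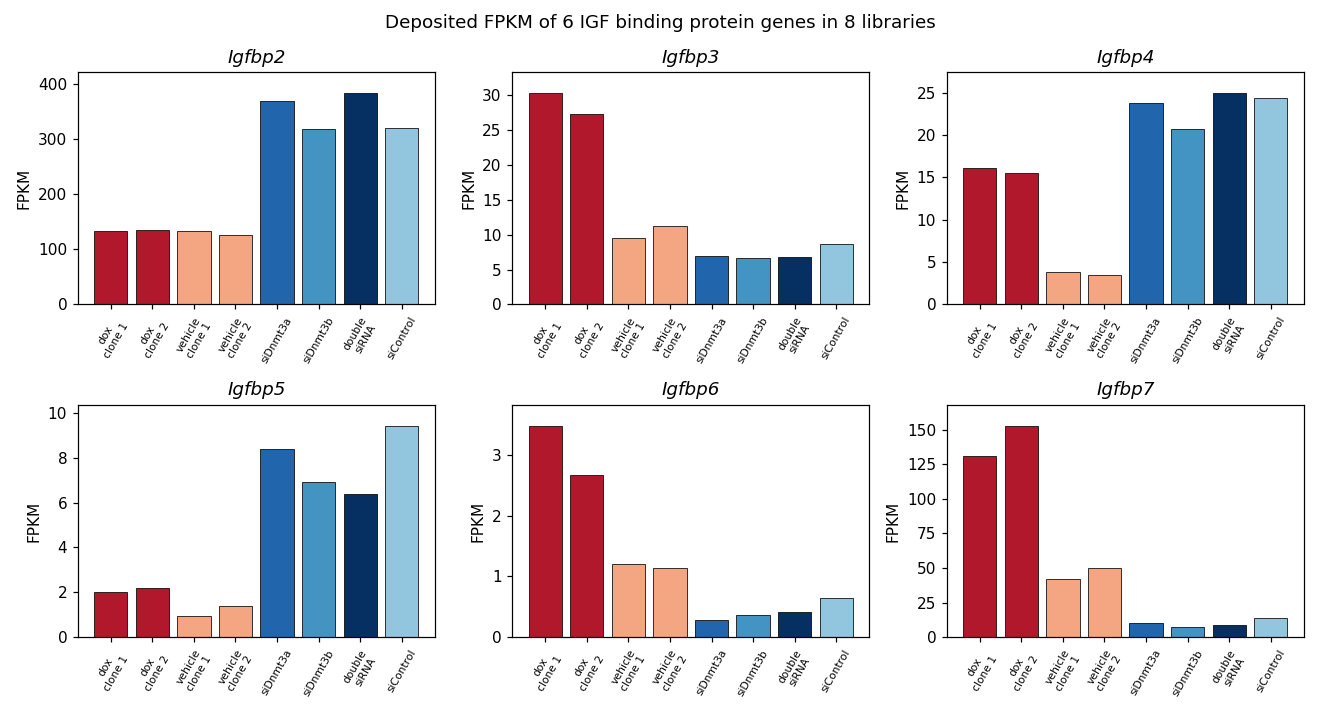
Deposited FPKM of each gene (y axis, starting at 0, own scale per panel) in each of the 8 libraries (x axis), 1 bar per library. Igfbp3, Igfbp6 and Igfbp7 are highest in the 2 dox libraries, while Igfbp2, Igfbp4 and Igfbp5 are highest in the wild-type libraries.

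Within groups, the order of levels changed between the lines. In dox, Igfbp7 (142 ± 15.7 FPKM, SD, n = 2) and Igfbp2 (134 ± 0.367) could not be ranked, since clone 1 had more Igfbp2 and clone 2 more Igfbp7. Igfbp3 (28.8 ± 2.13), Igfbp4 (15.8 ± 0.434), Igfbp6 (3.07 ± 0.568) and Igfbp5 (2.11 ± 0.133) followed. In vehicle, Igfbp2 (129 ± 5.26) led, followed by Igfbp7 (45.9 ± 5.89), Igfbp3 (10.3 ± 1.21) and Igfbp4 (3.68 ± 0.249), while Igfbp5 (1.18 ± 0.301) and Igfbp6 (1.17 ± 0.0414) overlapped. In siControl the order was Igfbp2, Igfbp4, Igfbp7, Igfbp5, Igfbp3 and Igfbp6, with Igfbp5 and Igfbp3 separated by less than 1 FPKM.

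Igfbp2 made up 42.3% and 40.1% of the summed FPKM of the 6 genes in dox, against 69.9% and 65.1% in vehicle. Its share was 88.2%, 88.3% and 89.0% with siDnmt3a, siDnmt3b and the double siRNA, against 84.9% in siControl. Igfbp7 held 41.3% and 45.6% in dox, against 21.9% and 25.9% in vehicle. Only 2.40%, 2.03% and 2.07% belonged to Igfbp7 with siDnmt3a, siDnmt3b and the double siRNA, against 3.62% in siControl. The sum itself was 317 and 335 FPKM in dox, against 190 and 193 in vehicle, and 419, 360 and 431 in the siRNA libraries against 376 in siControl.

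**Figure D2:**
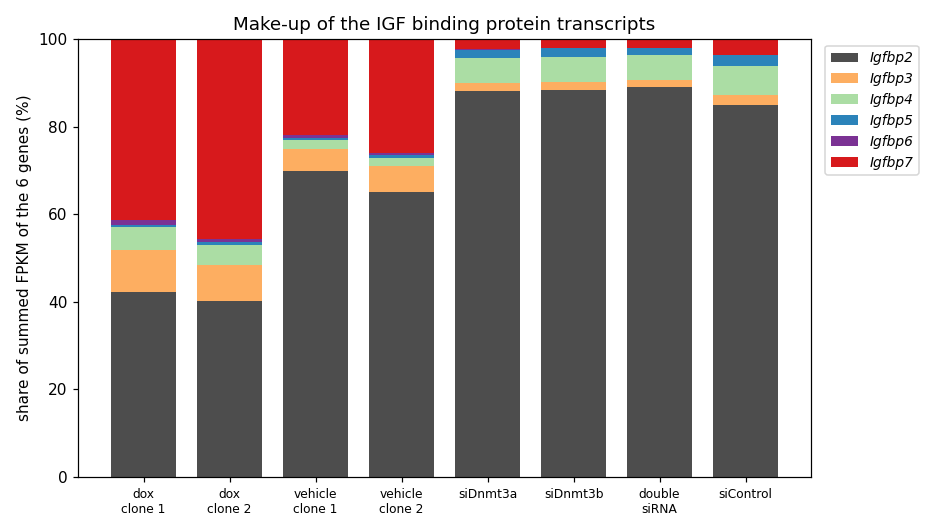
Share of each gene in the summed FPKM of the 6 genes (y axis, percent) in each library (x axis), as stacked bars. Igfbp2 holds 40.1% to 42.3% in dox, 65.1% to 69.9% in vehicle and 84.9% to 89.0% in the wild-type libraries, and the remainder of the knock-in libraries is mostly Igfbp7.

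On GRCm38 all 6 are protein-coding genes, and each value counts the whole gene. Igfbp2 (ENSMUSG00000039323.18) lies on chromosome 1 from 72824503 to 72852474 on the plus strand, and Igfbp5 (ENSMUSG00000026185.8) faces it from 72857932 to 72874884 on the minus strand, 5458 bases away. Both were higher in the wild-type libraries, as was Igfbp4 on another chromosome. Vehicle and wild-type libraries did not overlap for 76.2% of 12042 genes. Igfbp3 (ENSMUSG00000020427.11) lies on chromosome 11 from 7206086 to 7213923 on the minus strand, 3540 bases from Igfbp1. Igfbp4 (ENSMUSG00000017493.12) lies on the same chromosome from 99041244 to 99054392 on the plus strand. Igfbp6 (ENSMUSG00000023046.6) lies on chromosome 15 from 102144362 to 102149511 on the plus strand. Igfbp7 (ENSMUSG00000036256.13) lies on chromosome 5 from 77349240 to 77408041 on the minus strand. It overlaps Polr2b, which encodes a subunit of RNA polymerase II, by 85 bases and the antisense RNA gene Gm34648 by 7085, both on the plus strand. The strand setting of the counting is not given, so reads of these partners cannot be told apart there. Polr2b was at 50.4 and 41.7 FPKM in dox, against 59.2 and 55.2 in vehicle, the opposite direction to Igfbp7, and Gm34648 was not analysed here.

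The start regions are shown for the neighbours Igfbp2 and Igfbp5, both higher in the wild-type line, and for the 3 genes with the largest differences in dox, Igfbp3, Igfbp4 and Igfbp7. They are the 250 bases before the RefSeq start on GRCm38.p6, read along the gene, with every CpG, the site of DNA methylation, in capitals.
Igfbp2, chr1:72824230-72824479, plus strand: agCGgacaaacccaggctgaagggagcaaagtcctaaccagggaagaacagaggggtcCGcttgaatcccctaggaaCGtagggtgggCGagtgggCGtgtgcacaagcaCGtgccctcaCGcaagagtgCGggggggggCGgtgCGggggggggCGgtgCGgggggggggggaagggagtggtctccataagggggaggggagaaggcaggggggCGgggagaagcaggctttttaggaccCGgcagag
Igfbp3, chr11:7213924-7214173, minus strand: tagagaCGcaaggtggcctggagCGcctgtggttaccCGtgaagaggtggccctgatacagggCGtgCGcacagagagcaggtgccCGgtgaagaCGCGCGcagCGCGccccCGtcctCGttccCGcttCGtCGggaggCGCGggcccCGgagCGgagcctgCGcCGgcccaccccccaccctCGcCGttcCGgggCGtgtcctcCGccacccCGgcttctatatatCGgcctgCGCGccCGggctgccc
Igfbp4, chr11:99040994-99041243, plus strand: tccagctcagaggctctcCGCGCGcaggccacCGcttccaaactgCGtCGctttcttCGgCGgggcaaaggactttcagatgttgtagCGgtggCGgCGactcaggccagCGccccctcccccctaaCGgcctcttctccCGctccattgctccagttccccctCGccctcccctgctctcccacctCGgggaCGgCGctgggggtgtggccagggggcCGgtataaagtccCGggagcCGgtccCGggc
Igfbp5, chr1:72874866-72875115, minus strand: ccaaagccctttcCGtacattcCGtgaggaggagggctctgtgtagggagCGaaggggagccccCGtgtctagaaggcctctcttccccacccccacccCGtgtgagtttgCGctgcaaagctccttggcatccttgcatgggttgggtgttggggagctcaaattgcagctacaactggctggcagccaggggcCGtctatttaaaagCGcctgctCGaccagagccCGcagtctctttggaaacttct
Igfbp7, chr5:77408046-77408295, minus strand: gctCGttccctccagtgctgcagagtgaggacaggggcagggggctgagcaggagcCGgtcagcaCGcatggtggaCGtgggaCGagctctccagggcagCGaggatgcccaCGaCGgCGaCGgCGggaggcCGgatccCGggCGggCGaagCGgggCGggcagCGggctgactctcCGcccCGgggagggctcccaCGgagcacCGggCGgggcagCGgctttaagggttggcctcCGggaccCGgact

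All 6 genes had an entry in the promoter table. The Igfbp3 window holds 32 CpG, and 4.39% of the 27025 promoters of the table hold as many. Igfbp7 has 26 and Igfbp4 has 22, counts reached by 9.24% and 14.6% of promoters. Igfbp2 has 14, Igfbp5 has 10 and Igfbp6 has 7, beside a median of 6. The letters TATAAA, searched on both strands, occur once each upstream of Igfbp4 and Igfbp6 and in 13.0% of all promoters. GGGCGG, also on both strands, occurs 3 times at Igfbp2 and 4 times at Igfbp7, and at least once in 32.9% of promoters.

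The dox comparison sets knock-in cells given dox, and then 2 weeks without it, against vehicle. No library had dox without the miR-203 allele, and the vehicle collection time is not given. Effects of miR-203, of dox itself and of time in culture therefore cannot be told apart. Of the 6 genes, Igfbp3, Igfbp4, Igfbp5, Igfbp6 and Igfbp7 rose in dox and none fell, while Igfbp2 did not pass the test. The test was limma on log2(FPKM + 1) over 11927 genes with a mean of 1 FPKM or more in these 4 libraries, adjusted by Benjamini-Hochberg and called at 0.05. It called 31.9% of genes, 17.1% as higher in dox and 14.8% as lower. All 6 genes passed the filter on low values, and all had a vehicle mean of at least 1.17 FPKM.

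Igfbp4 had the largest difference, 1.85 (log2, SE 0.0930, limma adjusted p = 1.66e-04), and its mean was 4.30-fold higher in dox. Of the genes tested, 0.361% were higher by more. Igfbp7 rose by 1.61 (SE 0.116, limma adjusted p = 4.34e-04), or 3.09-fold in the means, and Igfbp3 by 1.40 (SE 0.107, limma adjusted p = 5.36e-04), or 2.79-fold. For both, every dox library was more than 2-fold above every vehicle library.

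Igfbp6 rose by 0.90 (SE 0.134, limma adjusted p = 0.00527), on a scale that understates the change of low genes. Igfbp5 rose by 0.52 (SE 0.138, limma adjusted p = 0.0317), a call near the threshold. It was lost without vehicle clone 1 (0.38, limma adjusted p = 0.156) and without dox clone 2 (0.48, limma adjusted p = 0.0984). Igfbp2 differed by 0.05 (SE 0.0691, limma adjusted p = 0.570). Of 34 fibroblast markers tested in these libraries, 33 rose and Vcam1 did not pass, with a median difference of 1.57 beside -0.01 over all genes tested. Lum and Pdgfra, both under 1 FPKM in each vehicle library, passed the filter only through their dox values.

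**Figure D3:**
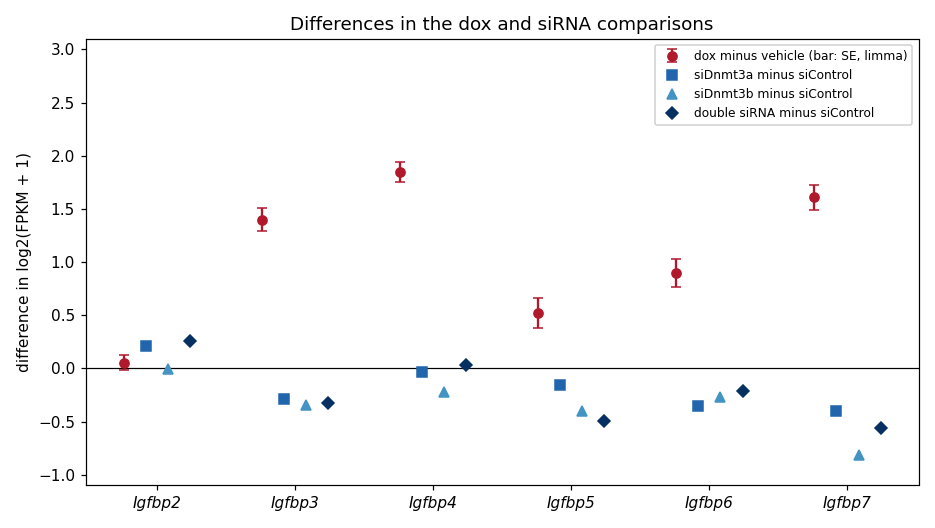
Differences in log2(FPKM + 1) (y axis) for each gene (x axis): dox minus vehicle from limma with its standard error, and each siRNA library minus siControl, with 1 library a group and no error. Dox points run from 0.05 for Igfbp2 to 1.85 for Igfbp4, while siRNA points run from -0.82 to 0.26.

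The knock-in makes miR-203, whose 3' arm as given in RefSeq is shown with its seed, bases 2 to 8, in capitals, together with the 2 matches to that seed found in the 3' UTRs of the family. The match searched, CATTTCA on the transcript strand, is in capitals in the sites.
mmu-miR-203-3p: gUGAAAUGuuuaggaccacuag
Igfbp5, chr1:72862288-72862294, minus strand: aggacgtcactCATTTCAtctcatttagg
Igfbp5, chr1:72861151-72861157, minus strand: ccaggtcacccCATTTCAgccttccaacc

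Both sites are in the 3' UTR of Igfbp5, which at 4445 bases is the longest of the 6. The coordinates are those of the seed match on GRCm38. No such match was found in the 3' UTRs of the other 5 genes, which are 209 to 2813 bases long. Over 10489 expressed genes, 15.1% had at least 1 match, with a median 3' UTR of 954 bases. Igfbp5 was at 2.11 ± 0.133 FPKM in dox and 1.18 ± 0.301 in vehicle (SD, n = 2 each).

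The siRNA comparisons concern cells labelled as given siRNA against the DNA methyltransferases, whose mRNA was only slightly lower at collection. Each sets 1 library against the same siControl library, with no replicate check. None of the 5 binding protein genes that passed the filter differed by 2-fold or more (1 on the log2(FPKM + 1) scale) in any of them. Over all genes tested, 0.153% did so with siDnmt3a, 0.111% with siDnmt3b and 0.239% with the double siRNA. Igfbp6, under 1 FPKM in these libraries, was not among these 5 genes. Without the pseudocount its FPKM differed from siControl by -55.0% with siDnmt3a, -43.1% with siDnmt3b and -35.1% with the double siRNA. Of the 5 genes, 4 were lower with siDnmt3a, 5 with siDnmt3b and 3 with the double siRNA, where 51.7%, 51.3% and 48.4% of all genes tested were lower.

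Igfbp7 had the widest differences among the 5, at -0.40, -0.82 and -0.56 (log2) with siDnmt3a, siDnmt3b and the double siRNA. With siDnmt3b, 0.128% of 11727 genes were lower by more. Igfbp5 differed by -0.15, -0.40 and -0.50, and Igfbp3 by -0.29, -0.34 and -0.32. Igfbp4 lay at -0.04, -0.23 and 0.03.

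Igfbp2 differed by 0.21, -0.01 and 0.26 from siControl with siDnmt3a, siDnmt3b and the double siRNA. Corrected for GC content and transcript length, the values of Igfbp2 for siDnmt3a and the double siRNA were 0.14 and 0.00, and that of Igfbp7 for the double siRNA was -0.84. Igfbp3, Igfbp5, Igfbp6 and Igfbp7 were lower than siControl in all 3 libraries, 4 of the 6, as were 22.9% of the 12042 genes with a mean of 1 FPKM or more over the 8 libraries. The fibroblast markers had medians of -0.55 with siDnmt3a, -0.52 with siDnmt3b and -0.68 with the double siRNA, and the medians over all genes tested lay within 0.01 of 0.

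Between the lines, the 2 vehicle libraries and the 4 wild-type libraries did not overlap for any of the 6 genes, as was so for 76.2% of 12042 genes. The vehicle mean was 3.36 times the siControl level for Igfbp7, 1.83 times for Igfbp6 and 1.19 times for Igfbp3. It was 0.405 times that level for Igfbp2, 0.151 times for Igfbp4 and 0.125 times for Igfbp5. These differences were not tested, since siControl is 1 library.

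Each gene was then read against the summed level of the 35 fibroblast markers in the same library. The make-up of this sum differs between the lines, so the ratios are not alike across them. It also differs between dox and vehicle, which limits the ratios within the knock-in line. The dox mean of Vcam1 was 0.980 times its vehicle mean, and that of Dcn 8.28 times. Igfbp7 was at 2.59 and 2.91 FPKM per 100 FPKM of markers in dox, against 2.53 and 2.62 in vehicle. Its values were 1.53, 1.15 and 1.34 with siDnmt3a, siDnmt3b and the double siRNA, against 1.63 in siControl. Within the knock-in line the highest of these ratios of Igfbp7 was 1.15 times the lowest, where its FPKM spanned 3.67-fold, and 0.333% of 12012 genes had as narrow a span. Across the wild-type libraries the ratio of Igfbp7 spanned 1.41-fold, and 57.1% of 12024 genes were as narrow.

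Igfbp3 was at 0.600 and 0.520 FPKM per 100 FPKM of markers in dox, against 0.575 and 0.587 in vehicle. In wild-type cells it was at 1.05, 1.05 and 1.014 with siDnmt3a, siDnmt3b and the double siRNA, against 1.03 in siControl. Here the span was 1.15-fold in the knock-in line, where 0.400% of 12012 genes were as narrow. It was 1.03-fold in the wild-type line, where 0.0333% of 12024 genes were as narrow. Igfbp6 was at 0.0688 and 0.0509 in dox, against 0.0731 and 0.0601 in vehicle. Its ratio spanned 1.44-fold in the knock-in line, where 2.42% of genes were as narrow. Across the wild-type libraries it spanned 1.75-fold, where 92.7% of genes were as narrow. For these 3 genes dox and vehicle overlapped per marker, and the share of all genes that did so was not computed.

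Igfbp4 was at 0.319 and 0.296 per 100 FPKM of markers in dox, against 0.234 and 0.184 in vehicle, so that dox stayed above vehicle. With siDnmt3a, siDnmt3b and the double siRNA it was at 3.61, 3.27 and 3.76, against 2.91 in siControl. Igfbp5 was at 0.0399 and 0.0420 in dox, against 0.0585 and 0.0729 in vehicle, the reverse of its order in FPKM. Igfbp2 was at 2.65 and 2.56 in dox, against 8.07 and 6.59 in vehicle. Its values were 55.96, 50.1 and 57.8 in the siRNA libraries, against 38.1 in siControl. Its FPKM was close in dox and vehicle, so this ratio follows the marker sum there. In the knock-in line the ratio spanned 1.74-fold for Igfbp4, 1.83-fold for Igfbp5 and 3.15-fold for Igfbp2. As narrow there were 5.19%, 6.09% and 42.2% of genes, and across the wild-type libraries 16.4%, 25.8% and 76.9%. The part of feeder cells in these levels was not tested. The ratios cannot test it, since any gene whose fold is near that of the marker sum has a narrow span.

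**Figure D4:**
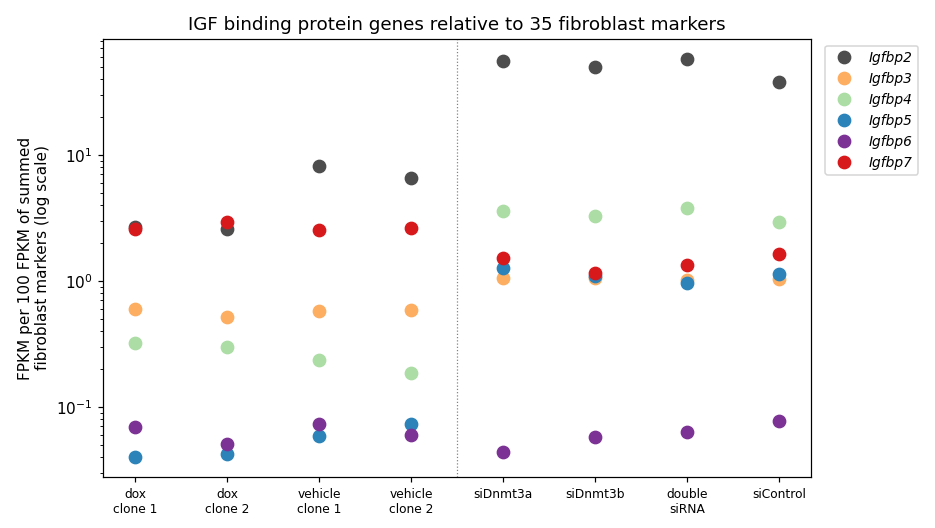
FPKM of each gene per 100 FPKM of 35 summed fibroblast markers (y axis, log scale) in each library (x axis), 1 point per gene and library, with a dotted line between the knock-in and wild-type lines. Igfbp3 and Igfbp7 stay near 0.520 to 0.600 and 2.53 to 2.91 over dox and vehicle, while Igfbp2 is lower in dox than in vehicle and at 38.1 or more in wild-type cells.

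Markers of other cell types that could be present were also read. Summed macrophage markers were at 273 and 353 FPKM in dox, against 207 and 237 in vehicle, and 4 of 9 tested rose. Of these 4, Itgam had a vehicle mean of 0.975 FPKM and passed the filter only through its dox values. Summed endothelial markers were at 33.1 and 36.0 FPKM in dox, against 26.8 and 23.8 in vehicle, of which Pecam1, also a gene of naive pluripotent cells, made up the larger part. Individual endothelial markers differed between the lines in both directions. Cdh5, a defining endothelial gene, was at 0.0108 FPKM or less in the knock-in libraries and at 0.462 to 0.530 in the wild-type libraries. Flt1 was at 1.42 to 2.58 FPKM in the knock-in libraries and at 0.225 to 0.422 in the wild-type libraries. Tek was at 1.17 to 2.08 and at 0.366 to 0.561 in the same order. Contractile markers summed to 86.6 and 85.3 FPKM in dox, against 75.2 and 73.6 in vehicle, with 2 of 6 tested higher and 1 lower. Of 10 endoderm markers 8 were under 1 FPKM in every library, and the 1 tested did not pass. Of 6 neural markers tested, 1 rose and 2 fell, and of 12 pluripotency markers 4 rose and 1 fell.

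The neural markers differed between the lines. Their summed level over 10 genes was 67.6 and 54.3 FPKM in dox and 70.5 and 66.7 in vehicle. With siDnmt3a, siDnmt3b and the double siRNA it was 153.7, 150.8 and 162.0 FPKM, against 151.0 in siControl. Sox1, a gene of early neural cells, was at 1.75 to 1.98 FPKM in the knock-in libraries and at 32.8 to 34.7 in the wild-type libraries, and it is named here after its values were seen. Igfbp2, Igfbp4 and Igfbp5 were higher in the same wild-type libraries, and the part of neural-marker cells in those levels was not tested.

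The rest of the IGF pathway was read from lists chosen by role. Of the ligands, Igf2, the imprinted fetal growth factor, was at 33.8 and 33.4 FPKM in dox, against 7.93 and 9.23 in vehicle, and rose by 1.86 (SE 0.0955, limma adjusted p = 1.82e-04). It was at 7.64, 7.66 and 7.35 FPKM with siDnmt3a, siDnmt3b and the double siRNA, against 11.8 in siControl. Igf1 was at 2.04 and 3.69 in dox, against 1.21 and 1.19 in vehicle, and rose by 0.78 (SE 0.205, limma adjusted p = 0.0314). Ins1 and Ins2, the insulin genes, were listed at 0 in every library. Summed binding proteins stood at 317 and 335 FPKM beside 35.9 and 37.0 of ligands in dox, and at 190 and 193 beside 9.14 and 10.4 in vehicle.

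Among the receptors, Igf1r, the signalling receptor, was at 4.30 and 4.29 FPKM in dox, against 2.52 and 2.56 in vehicle (0.58, limma adjusted p = 0.00865). Igf2r, which clears IGF-II, was at 28.8 and 29.7, against 15.3 and 15.7 (0.87, limma adjusted p = 8.87e-04). Both rose. The insulin receptor Insr was at 2.23 and 2.49 in dox, against 1.55 and 1.81 in vehicle, and did not pass (0.33, limma adjusted p = 0.0749). Insrr was under 0.1 FPKM and was not tested.

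Of 9 adaptor and signalling genes tested, 4 rose, none fell and 5 did not pass, with a median of 0.29. Grb14 and Grb10 encode adaptors that dampen insulin receptor signalling. Grb14 rose to 7.04 and 8.24 FPKM in dox, against 1.43 and 1.503 in vehicle, and Grb10 to 16.7 and 19.3, against 8.98 and 11.1. Wild-type cells held 94.8, 91.1 and 84.2 FPKM of Grb10 in the siRNA libraries, against 93.8 in siControl. The kinase gene Akt1 rose by 0.51 and Foxo3, a transcription factor that Akt restrains, by 0.33.

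Of 14 proteases of the binding proteins and their regulators tested, 12 rose and 2, Mmp13 and Stc2, did not pass, with a median of 1.06. The matrix proteases Mmp3 and Mmp2 rose by 3.52 and 1.85, Adamts1 by 1.61 and the plasminogen activator Plat by 1.27. Mmp2 also stands in the list of fibroblast markers. Pappa, which encodes the protease of IGFBP-4 and is named here after its values were seen, was at 3.47 and 3.45 FPKM in dox, against 0.926 and 1.09 in vehicle. It thus differed in the same direction as Igfbp4, at 1.15 (log2, limma adjusted p = 0.00117). In wild-type cells, where Igfbp4 was higher, Pappa was at 0.222, 0.151 and 0.183 with siDnmt3a, siDnmt3b and the double siRNA, against 0.327 in siControl.

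The list of proteins related to the binding proteins gave 7 higher and none lower of 8 tested, with a median of 1.31. The matricellular genes Cyr61, Wisp2, Wisp1 and Ctgf rose by 2.09, 2.03, 1.94 and 1.89. Cyr61 was at 95.2 and 120.3 FPKM in dox, against 25.9 and 23.1 in vehicle. Igfbpl1, the binding protein-like gene, was at 1.34 and 0.730 FPKM in dox, against 1.82 and 1.18 in vehicle, and did not pass.

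**Figure D5:**
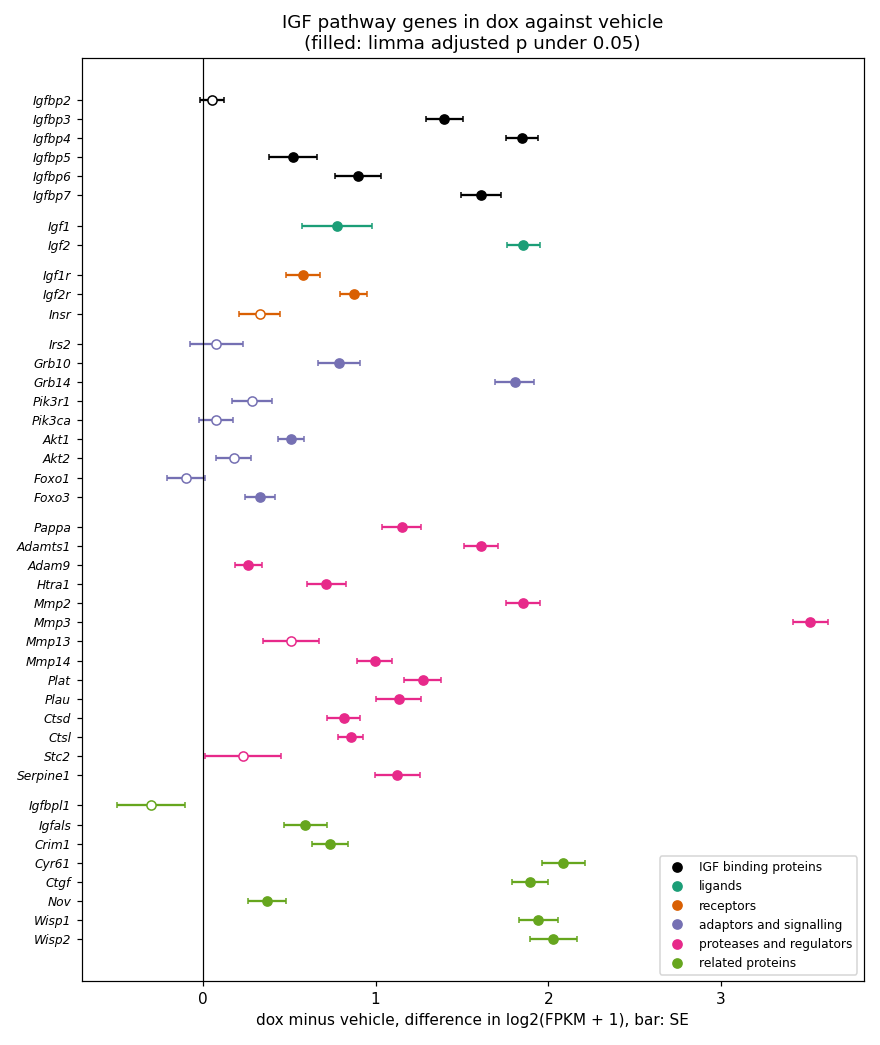
Dox minus vehicle difference in log2(FPKM + 1) with its standard error (x axis) for the 6 binding protein genes and the tested genes of the ligand, receptor, signalling, protease and related lists (y axis). Filled points passed limma's adjusted threshold of 0.05, and all of these lie above 0, led by Mmp3 at 3.52.

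The genes whose profiles over the 8 libraries were most like each member were found by the root-mean-square distance of centred log2(FPKM + 1), among 10986 genes. Igfbp7 was nearest to Thbs1, Bgn and Aebp1 (distances 0.0949, 0.129 and 0.151), of which Thbs1 and Bgn stand in the fibroblast list. Igfbp3 was nearest to Arhgap24, Serpine2 and Osbpl5 (0.0870, 0.0947 and 0.0987), and Igfbp6 to Bdnf, Tsku and Pdpn (0.0836, 0.102 and 0.109). Igfbp2 lay nearest to H1fx, Dgkz and Fut4 (0.0392, 0.0683 and 0.0810), and genes near Igfbp5 included Dtx4 and Greb1 (0.143 and 0.164). Igfbp4 had no gene as near, its closest being Mfap4, Zyx and Pxdn (0.221, 0.274 and 0.284). Within the family, Igfbp3 and Igfbp6 were nearest to each other (0.203), as were Igfbp2 and Igfbp5 (0.322), and the profiles share libraries and depth.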

How the data were processed

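PolyA RNA was made into strand-specific libraries, per the labels' protocols. The authors deposited FPKM, with each library in its own column. Tools in the submitters' processing notes are Cufflinks 2.2.1 with Cuffnorm, TopHat2 2.0.10, SAMtools 0.1.19, Bowtie 1.0.0 and FastQC, and the builds are GRCm38 and mm10. The scaling option, gene annotation and strandedness used in counting are not stated there. Where scaling is to total fragments, an abundant gene lowers the FPKM of the others. Sums over all genes ran from 486917 (dox clone 2) to 586657 FPKM (double siRNA). Sequencing depth is unknown, and steps among 1077 genes under 0.3 FPKM were too mixed to recover it (at most 14.0% lay at 1 common ratio to siControl), so no counting intervals were computed.

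The test of dox against vehicle was two-sided, from limma 3.58.1 under R 4.3.3, on log2(FPKM + 1) with a mean trend in eBayes. The whole table was fitted and p-values were adjusted over all 11927 genes tested. The fit was also run on simulated data with noise drawn independently for each library. That run therefore says nothing of effects shared between libraries. Differences of siRNA libraries from siControl are log2(FPKM + 1) without a test, over genes with a mean of 1 FPKM or more in the 2 libraries. The siControl library is shared by all 3 comparisons. The test did not pair the clones.

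The 6 genes and all lists were chosen with earlier results of these data known. Named genes were the 6 members, all ligands and receptors, up to 4 called members with the largest difference from the other lists, and the 3 genes nearest each member in profile. Of the genes nearest in profile, 1 is not reported here. Others are named as examples. Of 10 macrophage markers, 1 was matched through an older symbol. Gene positions and 3' UTRs came from GENCODE release M21, and promoter and miRNA sequences from RefSeq on GRCm38.p6. The GC and length correction subtracts, per library, the median deviation of the 300 genes nearest in both, and was chosen after the data were seen. Other alternatives were a pseudocount of 0.1, no minimum or a minimum mean of 5 FPKM, size-factor scaling, quantile normalisation, no trend, the clone number as a block, and leaving out each library.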

Additional observations from a re-analysis of the deposited data

How the results depend on the processing

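Igfbp3, Igfbp4 and Igfbp7 kept their direction and passed limma's threshold in all 12 alternatives, with adjusted p of 0.0132 or less, and Igfbp6 in the 11 where it was tested. Igfbp5 passed in 7 of 11 and had adjusted p of 0.0748 without a filter and 0.0774 with quantile normalisation, and 0.0984 and 0.156 without dox clone 2 and vehicle clone 1. The cause was not tested. Igfbp2 did not pass in any, and reversed to -0.0932 with the GC and length correction (adjusted p = 0.370). With a minimum of 5 FPKM, which leaves Igfbp5 and Igfbp6 out, 3 of the 6 genes rose, and leaving out 1 library at a time gave 4 to 5.

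Over all genes in dox, 2035 rose and 1767 fell. The labels number the clones 1 and 2 in both groups but do not say that equal numbers mean the same clone. Clone 1 minus clone 2 had r = 0.441 between dox and vehicle across 11927 genes, which are not independent replicates. With the clone number as a replicate block the counts were 3052 and 3190, and the block changed no call of the 6 genes. There were 1289 higher genes with the minimum of 5 FPKM and 947 lower ones without a filter. Leaving out 1 library at a time gave 1057 to 2130 higher and 527 to 2014 lower, the fewest without vehicle clone 1.

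Genes at 2-fold in the siRNA libraries were few and followed the pseudocount and the filter, but none of the 6 genes reached 2-fold on the log2 scale under any alternative in which it was tested. With siDnmt3a, 8 were higher and 10 lower. A pseudocount of 0.1 gave 13 and 32, a minimum of 5 FPKM gave 3 and 4, no filter gave 16 lower, and the GC and length correction gave 5 higher. With siDnmt3b, 6 were higher and 7 lower. The pseudocount of 0.1 gave 10 and 21, the minimum of 5 FPKM gave 1 and 4, and no filter gave 12 lower. With the double siRNA, 12 were higher and 16 lower. The pseudocount of 0.1 gave 22 and 48, the minimum of 5 FPKM gave 5 and 10, and the correction gave 7 higher. Low genes have unknown counting error, which limits Igfbp5 and Igfbp6 most.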

Other observations

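The IGF2 mRNA-binding proteins share a name with the binding proteins but are RNA-binding proteins of another family. Igf2bp1 was at 49.2 and 42.4 FPKM in dox, against 69.1 and 55.4 in vehicle, and fell, with a difference of -0.43 (log2, SE 0.125, limma adjusted p = 0.0421). Igf2bp2 and Igf2bp3 did not pass. Igf2bp1 was at 60.1, 59.5 and 55.4 FPKM with siDnmt3a, siDnmt3b and the double siRNA, against 61.6 in siControl.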
